A study of Mus musculus with 20 samples.

Results

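Cytosolic ribosomal protein genes encode the proteins of the small (40S) and large (60S) subunits of the ribosome outside mitochondria. Their mRNAs are among the most abundant in dividing cells, and most begin with a stretch of pyrimidines (the 5′ TOP motif) through which growth signals control their translation. In the colon, stem and transit-amplifying cells make ribosomes at a high rate and lower it as they differentiate. The mouse genome also holds many processed pseudogenes of these genes, copies of the spliced mRNA that can be nearly identical to the parent.

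The genes were taken from the deposited expression table by the pattern of their symbols (Rpl and Rps followed by a number, and Rplp0 to Rplp2) and by a mean of at least 10 over the 20 libraries. Of 35240 gene symbols, 89 matched the pattern and 81 reached the mean, 32 of the small and 49 of the large subunit. Rpsa, Fau and Rack1, which also encode ribosomal proteins, fall outside the pattern and were described apart. RNA was sequenced from colonic organoids (colonoids) of C57BL/6 wild-type (WT) mice and of Tnfr2-/- mice (B6.129S2-Tnfrsf1b tm1Mwm/J), which lack TNF receptor 2 in all tissues. Colonoids of 2 mice per genotype were grown from crypts in Matrigel with IntestiCult medium, and RNA was taken at 5 time points between 1 and 7 days post-passage (DPP), with 2 libraries for each genotype and day. No treatment was named for these libraries, and cultures of the same mouse on different days are not independent animals. Below, 1 to 3 DPP are called early (6 libraries per genotype) and 5 and 7 DPP late (4 libraries per genotype). Values are TPM, an abundance per transcript length, after the authors' scaling between libraries, summed over the transcripts of a gene. Differences between groups are on the log2(TPM + 1) scale and were tested with limma over all genes.

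Library sums lay between 899764 and 1110233. Tnfrsf1b, the deleted receptor, was measured at 11.1 to 21.9 (median 14.3) in WT and 2.71 to 11.5 (median 4.85) in Tnfr2-/- libraries. It was lower in Tnfr2-/- by a log2 difference of -1.35 (SE 0.167, limma adjusted p = 9.72e-05), and only 1 Tnfr2-/- library, mouse 2 at 7 DPP, lay above the lowest WT library. By day the differences were -2.09, -1.78 and -1.31 on the 3 early days and -0.74 and -0.83 on the late days (SE 0.281 each); the late minus early change of 0.94 (SE 0.256) did not pass the test (limma adjusted p = 0.1815). The 6 epithelial markers (Epcam, Krt8, Krt18, Krt19, Cdh1, Vil1) were present in every library. Of these, Cdh1 and Epcam were higher in Tnfr2-/- over all days, 3 rose with time in WT (median 0.30), and 2 rose and 2 fell in Tnfr2-/- (median 0.01). Mitochondrially encoded genes held 5.04% ± 0.477 (SD, n = 6) of the library sum in early and 6.16% ± 0.698 (n = 4) in late WT libraries, and 4.85% ± 0.532 and 5.12% ± 0.162 in Tnfr2-/-. The part of these in the results was not tested. The 9 fibroblast markers (Pdgfra, Pdgfrb, Acta2, Col1a1, Col1a2, Col3a1, Dcn, Lum, Vim) were also above 0 in every library, with a sum of 1211 to 4276 in WT, 3129 to 5014 in Tnfr2-/- at 1 to 5 DPP, and 7892 and 8426 in Tnfr2-/- at 7 DPP. Of the immune markers, Adgre1 was listed at 0 in 19 libraries, Cd3e in 16, Itgax in 15 and Ptprc in 6. Csf1r, of macrophages, was above 0 in every library (0.301 to 6.42), was higher in Tnfr2-/- over all days (0.76) and rose with time in WT (1.17). Its part in the results was not tested.

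The 81 genes together held 10.7% to 15.4% of each library's sum. Single genes spanned a 63.9-fold range of mean level. Rpl41, which encodes the shortest ribosomal protein, had the highest mean (4009), followed by Rpl13a (3430) and Rplp0 (3344), the base of the ribosomal stalk. Rpl7l1 (62.7), Rpl12 (170) and Rpl27 (287) were the lowest. Levels between 500 and 3500 were found for 75 of the 81 genes. Below the minimum mean, the nearest were Rps4l, at 9.92, and Rps3a3, far lower at 1.19, while Rpl7l1 and Rpl12 were the nearest above it. Rpl3l, Rpl10l and Rpl39l, paralogues known from muscle or testis, were listed at 0 in all 20 libraries. TPM is a level per transcript length. For genes that share sequence with other loci, Rpl12 and Rpl27 among them, the level and its rank also depend on how reads were divided between the loci, as described below with those loci.

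The median member varied less between libraries than the median gene. The SD of log2(TPM + 1) over the 20 libraries had a median of 0.21 among the 81 genes and of 0.34 among the 8893 genes with a mean of at least 10. The members had a median level of 1604, and the sets were not matched on level. The part of level in this contrast was not tested. After the median of these same members was subtracted from each library, the median SD was 0.14. Such centering by itself favors a lower SD, and no other set of genes was centered in this way. The steadiest was then Rps4x, the X-linked small-subunit gene, with an SD of 0.05. The most variable was Rps12l1 with an SD of 1.97, ranging from 4.64 to 999 in WT and from 48.0 to 1248 in Tnfr2-/- libraries. The annotation lists Rps12l1 as a processed pseudogene, and all of its 369 different 31-base words occur in Rps12.

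The summed level of the members was highest at 3 DPP. Over both genotypes it averaged 114300 ± 9772 (SD, n = 4) at 1 DPP, 131405 ± 6351 a day later and 141013 ± 8824 at 3 DPP. The averages of 5 and 7 DPP were 133498 ± 5722 and 117624 ± 14516. All 4 sums of 3 DPP exceeded all 4 of 1 DPP and of 7 DPP. With loci of shared sequence added (described below), 3 and 7 DPP overlapped. The lowest sum of 3 DPP, 155999, then lay under sums of 158065 and 157205 at 7 DPP. As a share of the library sum, 3 DPP (12.8% to 15.4%) exceeded 7 DPP (10.7% to 12.4%) but overlapped 1 DPP (11.3% to 13.3%), and in Tnfr2-/- the mean share was 13.4% at 2 DPP and 13.2% at 3 DPP. In WT, the libraries of mouse 1 and mouse 2 held 126825 and 117208 at 1 DPP, 122844 and 130508 at 2 DPP, 151253 and 133201 at 3 DPP, 136408 and 126713 at 5 DPP, and 129438 and 103356 at 7 DPP. In Tnfr2-/-, the corresponding sums were 107588 and 105579, 135090 and 137179, 145488 and 134109, 131180 and 139689, and 106892 and 130808. The Tnfr2-/- sums of 1 DPP were lower than either WT sum of that day, and those of 2 DPP were higher. With loci of shared sequence added, the genotypes overlapped at 1 DPP, with 131796 and 123972 in Tnfr2-/- beside 145860 and 130693 in WT. Those of 2 DPP stayed higher in Tnfr2-/-. At the other days the sums of the genotypes overlapped. As shares of the library sum, both Tnfr2-/- values were below both WT values at 1 and at 5 DPP, and the genotypes overlapped at 2, 3 and 7 DPP. The mean over 10 libraries was 127775 ± 12471 (SD) in WT and 127360 ± 14881 in Tnfr2-/-, which differ by less than the SD within either genotype. As a share of the library sum the means were 13.1% ± 1.12 and 12.4% ± 0.984. The ratio of the large-subunit to the small-subunit sum stayed between 1.38 and 1.46 in all 20 libraries.

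**Figure D1:**
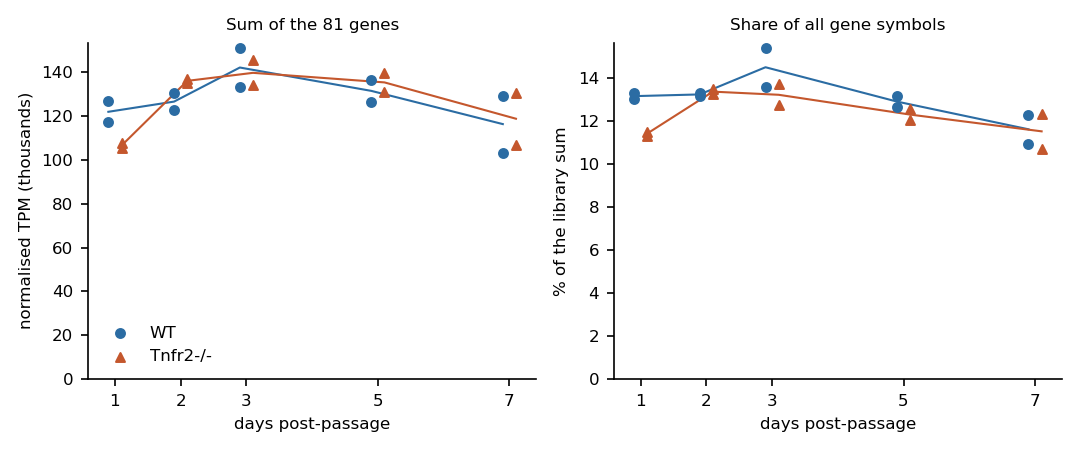
Summed level of the 81 genes in normalized TPM (left, axis divided by 1000) and as percent of the library sum (right) against days post-passage; each point is 1 library, circles WT, triangles Tnfr2-/-, and lines join the means of 2 libraries. The sum is highest in 1 WT library at 3 DPP, at 151253, and both Tnfr2-/- libraries at 1 DPP lie below the WT libraries of that day.

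Step by step, most single genes moved in the direction of the sum, of which they are the parts, and almost none passed the test. The counts of directions below come from the same libraries and are not independent of the sum or of each other. From 1 to 2 DPP, over both genotypes, 69 of 81 members had a positive difference, with a median of 0.19 on the log2 scale, beside -0.01 for all 13539 genes tested. Only Rpl3, a protein of the peptidyl transferase center, passed the test (limma adjusted p under 0.05), whereas 0.761% of all genes did. Rpl3 was at 1213 and 1011 in WT and 1196 and 1033 in Tnfr2-/- at 1 DPP, and at 1421 and 1320 and at 1629 and 1638 at 2 DPP. All libraries of 2 DPP thus exceeded all of 1 DPP. The log2 difference was 0.43 (SE 0.091, adjusted p = 0.0482), and the call was lost in 17 of the 20 fits that left out 1 library; it was kept without WT mouse 1 at 1 DPP, WT mouse 1 at 7 DPP or WT mouse 2 at 7 DPP. Fitting the mouse as a block raised the calls to 5 from 1 to 2 DPP, all higher: Rpl3, Rps18 (0.44), Rplp0 (0.35), Rpl10 (0.34) and Rpl7a (0.30). In that fit 2.17% of all genes were called. The call of Rpl3 was kept in 4 of 9 other settings, and was lost with pseudocount 0.1, no filter, library-sum scaling, no trend and centering on the members, with limma adjusted p up to 0.2334.

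From 2 to 3 DPP, 70 members had a positive difference (median 0.11) and none passed limma's test, as was so for all genes tested (0%); 3 members, among them Rpl4, had p under 0.05 before adjustment, and no alternative called any. From 3 to 5 DPP, 66 had a negative difference (median -0.08), none passed, and 2.18% of all genes did; 7 had p under 0.05 before adjustment, and Rpl22l1, Rpl7l1 and Rps27l had the lowest adjusted p (0.0649, 0.0681 and 0.114). From 5 to 7 DPP, all 81 members had a negative difference, with a median of -0.20 and none called, beside a median of 0.00 and 0.0222% called among all genes; 19 members had p under 0.05 before adjustment, led by Rpl22l1, Rpl4 and Rpl21. In the fit with the mouse as block, Rpl22l1 (-0.39) and Rpl7l1 (-0.34) fell from 3 to 5 DPP and Rpl22l1 (-0.51) from 5 to 7 DPP, where 5.13% and 0.798% of all genes were called. Successive steps share the libraries of the day between them. When each library was scaled to its own sum, 79 of the 81 differences from 5 to 7 DPP stayed negative, with a median of -0.13.

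Between late and early days, the members that fell in both genotypes included 3 paralogues of more abundant ribosomal proteins. In WT, 12 members passed the test, 14.8% of the 81 beside 20.1% of all genes. Of these, 11 fell (8.52% of all genes fell) and 1 rose. In Tnfr2-/-, 5 members passed, all lower, beside 20.3% of all genes in either direction and 9.93% lower. With both directions counted, these shares lay below the background in the values as tested, and not under every setting. With library-sum scaling 27 members of 81 were called in WT, beside 2754 of the 13539 genes, and without mouse 1 at 7 DPP 20 were, beside 1507 genes. Rpl22l1, Rps27l, Rpl7l1 and Rpl14 were called in both, which is 33.3% of the WT calls and 80% of the Tnfr2-/- calls. The median difference of the 81 genes was -0.12 in WT and 0.00 in Tnfr2-/-, beside 0.02 in both for all genes tested.

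Rpl22l1 encodes a paralogue of Rpl22, a large-subunit protein that binds RNA. In WT it ranged from 351 to 486 (median 417) at early days and was 303, 350, 256 and 216 in the late libraries, so that the groups did not overlap. In Tnfr2-/- it ranged from 274 to 417 (median 361) early and was 303, 333, 202 and 234 late, and the groups overlapped. The log2 differences were -0.57 (SE 0.092, limma adjusted p = 0.00118) in WT and -0.39 (SE 0.092, adjusted p = 0.0100) in Tnfr2-/-. Rpl22 itself was not called, with differences of -0.06 and 0.11. Of the 2 genes' summed level, Rpl22l1 made up 30.1% ± 3.10 (SD, n = 6) at early and 23.2% ± 3.11 (n = 4) at late days in WT, and 27.5% ± 1.13 and 21.2% ± 1.81 in Tnfr2-/-.

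Rps27l, a paralogue of Rps27 known as a target of p53, ranged from 572 to 899 (median 642) in early WT libraries and was 461, 536, 416 and 347 late, without overlap. In Tnfr2-/- it ranged from 492 to 618 (median 548) early and was 399, 504, 406 and 404 late. Of these late libraries, 3 lay below all early ones. Rps27l fell by 0.64 (SE 0.113, limma adjusted p = 0.00209) in WT and by 0.38 (SE 0.113, adjusted p = 0.0292) in Tnfr2-/- on the log2 scale. Rps27 had differences of -0.13 and 0.14 and was not called.

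Rpl7l1, a paralogue of Rpl7 and the lowest member by level, ranged from 68.0 to 78.7 (median 73.6) early and was between 52.0 and 54.5 in the 4 late libraries in WT. In Tnfr2-/- it ranged from 54.9 to 71.0 (median 67.1) early and between 46.1 and 53.7 late. It was the only member whose early and late libraries were fully separate in both genotypes. Such separation was counted among the members only and not among all genes, so it is not read as particular to Rpl7l1. The differences were -0.45 (SE 0.081, limma adjusted p = 0.00240) and -0.36 (SE 0.081, adjusted p = 0.00743). Rpl7 had differences of 0.05 and 0.18 and was not called. Rpl22l1, Rps27l and Rpl7l1 share no 31-base word with their partners.

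**Figure D2:**
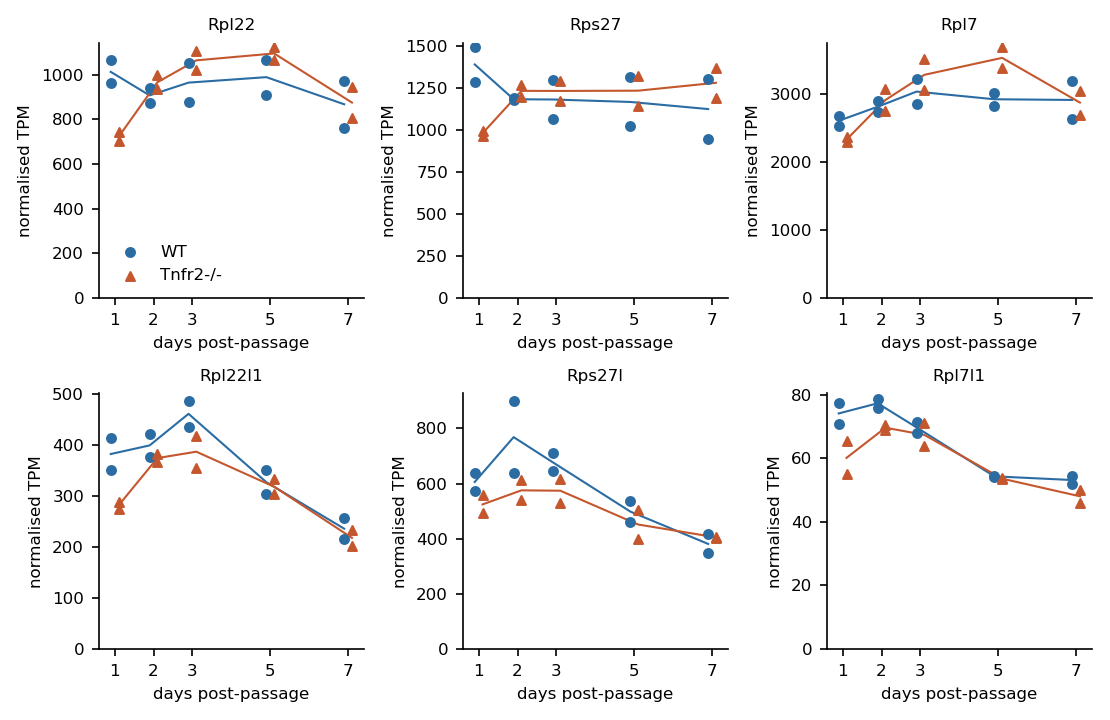
Normalized TPM of Rpl22, Rps27 and Rpl7 (top) and of Rpl22l1, Rps27l and Rpl7l1 (bottom) against days post-passage; each point is 1 library, circles WT, triangles Tnfr2-/-, lines join the means of 2 libraries, and every vertical axis starts at 0. In both genotypes the mean of each paralogue is lowest at 7 DPP, and that of Rps27l and Rpl7l1 at 5 DPP is also below those of 1 to 3 DPP; in Tnfr2-/- the mean of Rpl22l1 at 1 DPP (281) lies below that at 5 DPP (318).

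The letters around the annotated transcription starts of these genes are shown because a pyrimidine stretch that begins there marks a TOP mRNA. The windows run from 10 bases before to 15 bases from the start onward (RefSeq, GRCm38.p6), with the longest unbroken run of C and T in capitals, read on the strand of the transcript only; the 11th letter is the start. Rps6, whose protein is the substrate of S6 kinase, is shown beside them.
Rps6, chr4:86857353-86857377, minus strand: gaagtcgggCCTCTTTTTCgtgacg
Rps27, chr3:90213634-90213658, minus strand: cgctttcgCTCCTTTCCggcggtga
Rps27l, chr9:66946076-66946100, plus strand: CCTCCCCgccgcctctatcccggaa
Rps27l, second start, chr9:66946403-66946427, plus strand: gggCTTCagggtcactaacgggcct
Rpl22l1, chr3:28805498-28805522, plus strand: gcgcaagcccgTTCTCTTCCCacgg
Rpl7l1, chr17:46782642-46782666, minus strand: gCTgcgcaagcgcagtagctgaagc
The longest run was 10 bases in Rps6 and Rpl22l1, 9 in Rps27, 7 and 4 at the starts of Rps27l, and 2 in Rpl7l1. The runs of Rps6 and Rps27 crossed the start, and that of Rpl22l1 began just after it. Those of Rps27l and Rpl7l1 lay wholly before it, outside the annotated mRNA. Start windows were held for 60 of the 81 members. A run of at least 8 was found at 23 of their 71 starts (32.4%) and at 3119 of 32851 starts of all genes (9.49%). These counts take runs anywhere in the window, also those before the start. A run of these letters is a description of the annotated start, and no start was measured here.

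Among the other calls, Rps2, a protein of the decoding region of the small subunit, fell with time in Tnfr2-/-, from 2770 ± 366 (SD, n = 6) to 2059 ± 319 (n = 4). Its difference was -0.43 (SE 0.096, limma adjusted p = 0.00691), early and late libraries overlapped, and in WT the difference was -0.28 (adjusted p = 0.0535). Rpl14 fell from 1334 ± 99.7 to 1040 ± 105 in WT and from 1251 ± 115 to 1028 ± 154 in Tnfr2-/-, by 0.36 and 0.29 on the log2 scale. The Tnfr2-/- call of Rpl14 was lost in 9 of the 20 fits that left out 1 library, and that of Rps27l in 6. Rpl12 had the largest called difference in WT, -0.67 (SE 0.194, adjusted p = 0.0271), followed among the remaining calls by Rpl30 (-0.43), Rpl11 (-0.42), Rpl35 (-0.38), Rpl36a (-0.35), Rpl15 (-0.29) and Rpl38 (-0.28). Leaving out 1 library ended the call of Rpl36a in 18 of 20 fits, of Rpl35 in 13, of Rpl38 in 9, of Rpl12 and Rpl15 in 6 each and of Rpl11 in 5. With loci of shared sequence added, described below, Rpl12 turned to 0.16, Rpl30 to 0.19 and Rpl35 to -0.0021, and with named pseudogenes added Rpl36a turned to 0.028; none of these was then called. Rpl11 (-0.24), Rpl14 (-0.18 in WT, -0.22 in Tnfr2-/-) and Rpl15 (-0.06) were not called with the loci of shared sequence added either.

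**Figure D3:**
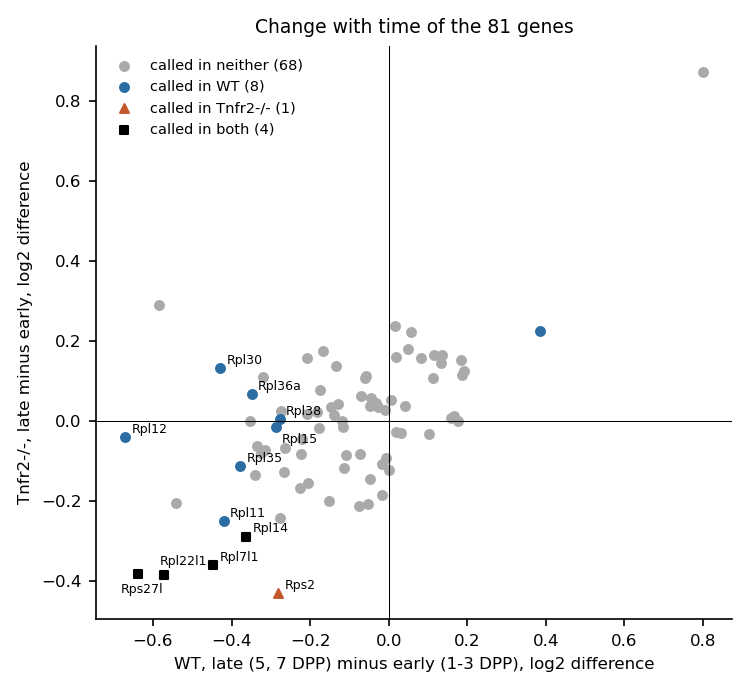
Late (5 and 7 DPP) minus early (1 to 3 DPP) log2 difference of each of the 81 genes in WT (horizontal) and Tnfr2-/- (vertical); colors and shapes mark the genotypes in which limma called the gene, and called genes that fell are named. The 4 genes called in both lie at the lower left, and Rps12l1, called in neither, lies at the upper right with differences of 0.80 and 0.87.

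The number of calls rested on single libraries and on the treatment of similar loci. In WT it was 20 without mouse 1 at 7 DPP, 5 without mouse 2 at 7 DPP, 6 without mouse 1 at 3 or at 5 DPP, and 7 without mouse 1 at 1 or at 2 DPP. In Tnfr2-/- it was 2 without mouse 1 at 7 DPP and 3 without mouse 1 at 2, 3 or 5 DPP or mouse 2 at 1 DPP. Where not given above, the calls of all genes in these fits are not set beside the counts. A change of the members and a change of the whole fit therefore cannot be told apart here. Rpl22l1, Rps27l, Rpl7l1 and Rpl30 in WT and Rps2 and Rpl7l1 in Tnfr2-/- were called in each of the 20 fits that left out 1 library. With values centered on the median of the members, 7 members were higher and 9 lower in WT, and 4 higher and 6 lower in Tnfr2-/-, in fits that called 2384 and 2277 of the 13539 genes.

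No member's change with time was called as different between the genotypes (limma, 0 of 81, beside 0.148% of all genes; 7 members had p under 0.05 before adjustment, and no alternative called any). The lowest adjusted p, 0.181, was that of Rpl30, whose difference of differences was 0.56 (SE 0.151). Rpl27 (0.87, SE 0.316) and Rpl36a (0.41, SE 0.164) followed. With the loci of shared sequence added (described below), these values were -0.04, -0.01 and 0.03. The genotypes were thus not shown to differ for the genes called in 1 of them. Of the 9 fibroblast markers, 1 fell with time in WT (median -0.48) and 3 rose in Tnfr2-/- (median 0.46), and Dcn was called as different between the genotypes. Their part in these results was not tested. In bulk RNA, fewer cells of a type and less RNA per cell cannot be told apart.

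Between the genotypes, Rpl34 stood alone among the 81. It was the 1 member called over all days (7.6% of all genes were called), at early days (1.2%) and at late days (6.45%). Rpl34, on chromosome 3 (GRCm38, chr3:130726831-130730398, minus strand), encodes a large-subunit protein. In WT it ranged from 978 to 1349 (median 1175) and in Tnfr2-/- from 65.9 to 156 (median 105), with no overlap at any day. Fitted over the 5 days, the difference in Rpl34 was -3.49 on the log2 scale (SE 0.147, adjusted p = 1.11e-10 in limma), and it lay between -3.57 and -3.40 at each of the 5 days.

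The processed pseudogene Rpl34-ps1, a single exon on chromosome 6 (chr6:71124610-71124963, plus strand), showed the mirror image. It was listed at 0 in 9 WT libraries and at 73.4 in the last, mouse 2 at 7 DPP, and ranged from 967 to 2171 (median 1634) in Tnfr2-/-. The transcript of Rpl34-ps1 is 354 bases long and aligned without a gap to positions 91 to 444 of the main Rpl34 transcript of 480 bases, which is its whole coding sequence. They differed at 2 positions, T222C in exon 3 and C408G in exon 5 (Rpl34 base, position from the 5′ end of the Rpl34 transcript, Rpl34-ps1 base), an identity of 99.4%. The 25 bases around each are shown because a read inside the coding sequence that crosses neither is common to both (GENCODE M21, mismatch in capitals).
Rpl34 at T222C, chr3:130729072-130729096, minus strand: agcacctaaatcTgcatgtggcgtg
Rpl34-ps1 at T222C, chr6:71124729-71124753, plus strand: agcacctaaatcCgcatgtggcgtg
Rpl34 at C408G, chr3:130726899-130726923, minus strand: cgttgtgaaagtCttgaaggcacaa
Rpl34-ps1 at C408G, chr6:71124915-71124939, plus strand: cgttgtgaaagtGttgaaggcacaa

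The change was uneven over the transcripts of Rpl34. The main transcript of 480 bases had a mean of 950 in WT and was listed at 0 in all 10 Tnfr2-/- libraries. The transcripts of 495 and 624 bases were above 0 in all 20 libraries, with means of 144 and 75.7 in WT and 63.6 and 37.5 in Tnfr2-/-. When Rpl34 and Rpl34-ps1 were summed, the levels overlapped, with 1047 to 1349 in WT and 1100 to 2253 in Tnfr2-/-, and the log2 difference turned to 0.50 (adjusted p = 0.00121 in limma). TPM counts a read in a short transcript for more than one in a long transcript. With each transcript's value multiplied by its length, the WT sum was 587900 ± 56400 (SD, n = 10) and the Tnfr2-/- sum 624100 ± 103300, a difference of 0.07 on the log2 scale that was smaller than the SD within either genotype. From these values, a lower level of Rpl34 mRNA and a different assignment of its reads cannot be told apart.

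**Figure D4:**
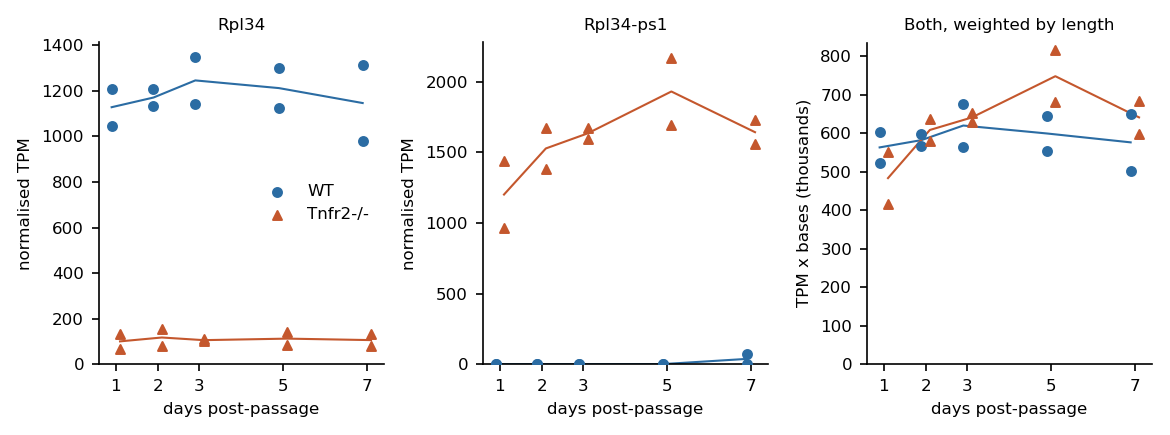
Normalized TPM of Rpl34 (left) and Rpl34-ps1 (middle), and the sum of both with each transcript multiplied by its length in bases (right, axis divided by 1000), against days post-passage; each point is 1 library, circles WT, triangles Tnfr2-/-, lines join means of 2 libraries. Rpl34 is low and Rpl34-ps1 high in all 10 Tnfr2-/- libraries, while the length-weighted sums overlap.

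Of the other 80 members, none was called between the genotypes over all days. Of them, 43 had a positive and 37 a negative difference, with a median of 0.00, and 3 had p under 0.05 in limma before adjustment. At early days 25 were positive and 55 negative (median -0.04, beside -0.01 for all genes). At late days 52 were positive and 28 negative (median 0.06, beside -0.05). The difference of differences was positive for 57 of the 80 (median 0.11, beside -0.03). Over all days, the lowest limma adjusted p-values were those of Rpl22l1 (-0.19, SE 0.066, adjusted p = 0.0996), Rpl7l1 (-0.13, adjusted p = 0.167) and Rps27l (-0.18, adjusted p = 0.186). With each library scaled to its own sum, Rpl22l1 (-0.26), Rpl7l1 (-0.20) and Rps9 (-0.16) passed as well, and 10 of the 81 members had a positive difference in place of 43. The calls and signs of all genes in that fit are not set beside these, so they are not read as particular to the members. At early days Rpl22l1 (-0.26, adjusted p = 0.176) and Rps27l (-0.28, adjusted p = 0.239) came next to Rpl34. At late days Rpl30 had the lowest adjusted p after Rpl34, with a difference of 0.36 (SE 0.117, adjusted p = 0.0867), followed by Rpl24 (0.26, adjusted p = 0.136). The summed fibroblast markers, at 1211 to 3999 in WT and 3685 to 8426 in Tnfr2-/-, also moved with genotype at late days, and their part was not tested. Rpl24, Rpl27 and Rpl30 were called as higher without WT mouse 1 at 7 DPP (655 of all genes were called in that fit), and Rpl30 without Tnfr2-/- mouse 1 at 7 DPP (389 genes). With all libraries and the loci of shared sequence added, the late differences of Rpl30 and Rpl27 were 0.05 and 0.11, and that of Rpl24, which has no such locus, was 0.26. Rpl18 was called as higher over all days without WT mouse 1. At 1 DPP alone, 69 of 81 members were lower in Tnfr2-/-, with a median of -0.22, and at 2 DPP 62 were higher, with a median of 0.08. Of all genes, 51.27% had a positive difference at 1 DPP (median 0.01) and 48.55% at 2 DPP (median -0.01). Apart from Rpl34, the lowest adjusted p of a member in the limma contrasts of single days, 2 libraries against 2, was 0.488 at 1 DPP and 0.559 at 2 DPP.

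Members known for particular roles were at like levels in both genotypes. Rplp0, Rplp1 and Rplp2, which form the stalk that recruits translation factors, were at 3433 ± 536, 2471 ± 409 and 1769 ± 296 (SD, n = 10) in WT and 3255 ± 466, 2594 ± 357 and 1844 ± 303 in Tnfr2-/-. Rps6 was at 1318 ± 165 and 1363 ± 166. Rpl5 and Rpl11, which bind 5S rRNA and can hold the p53 ligase Mdm2, were at 311 ± 64.1 and 277 ± 67.4, and at 1769 ± 335 and 1680 ± 231. Rps19 (1807 ± 327 and 1980 ± 293) and Rps24 (3220 ± 215 and 3203 ± 386), both mutated in Diamond-Blackfan anemia, also differed by less than 1 SD. The paralogues Rpl36a (777 ± 132 and 762 ± 70.8) and Rpl36al (577 ± 78.1 and 577 ± 66.4) were also close in both genotypes, as were Rpl39 (933 ± 151 and 906 ± 136), Rpl10 (2513 ± 300.2 and 2510 ± 375) and Rps4x (1578 ± 138 and 1595 ± 210). Outside the pattern, Rpsa, the laminin receptor protein of the small subunit, was at 1939 ± 300 and 1986 ± 326, and none of Rpsa, Fau and Rack1 was called in any of the 10 comparisons.

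Sequence sharing with pseudogenes reached well beyond Rpl34. In the annotation, 55 of the 81 members had at least 1 locus with at least 50% of its 31-base words in the member's transcripts, with each locus given to 1 member, 109 loci in all, of which 105 were annotated as pseudogenes. For 25 members these loci held over 10% of the combined level. Rpl12 itself was at 170, whereas its linked loci, mainly Gm10275, held 2377, or 93.3% of both. Rpl27 was at 287 and its linked loci at 1450, of which Gm11518 held 1261 with all of its 381 words found in Rpl27. Rpl5 was at 294 beside Gm15500 at 1527, and Rps7 at 581 beside Gm6472 at 1618. Together with its linked loci Rpl12 moved from rank 80 to rank 11 by level.

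**Figure D5:**
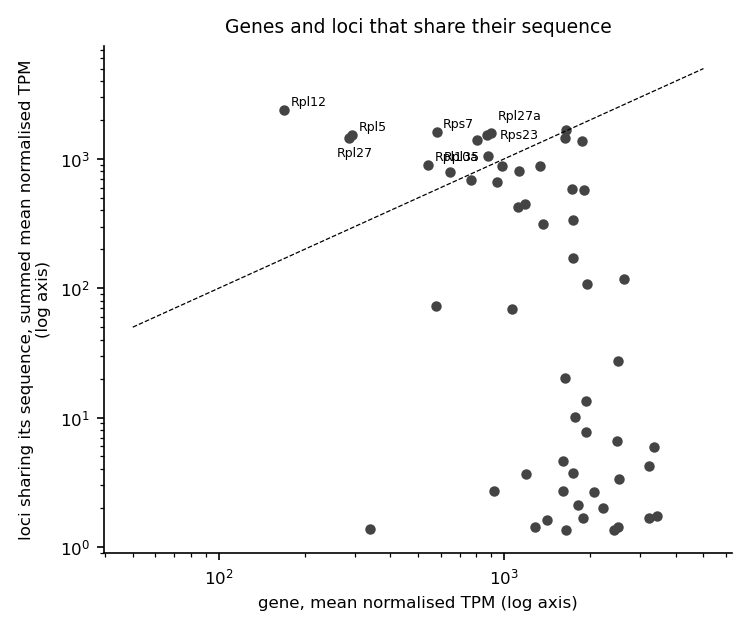
Mean normalized TPM of the 55 members with a linked locus (horizontal, log axis) against the summed mean of the loci that share their sequence (vertical, log axis); the dashed line marks equal levels, and members with over 60% of the sum in linked loci are named. Rpl12, at 170 beside 2377, lies farthest above the line.

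Added to their members, these loci changed which genes were called with time. In WT, 7 members were then called: Rpl22l1, Rps27l, Rpl7l1 and Rpl38 lower, and 3 higher, among them Rpl23a (0.23) and Rpl28 (0.34). Rpl12 turned from -0.67 to 0.16 and Rpl30 from -0.43 to 0.19, and neither was called. Rpl30 alone fell in WT from 974 ± 104 (SD, n = 6) to 726 ± 96.5 (n = 4), while its linked loci were at 816 ± 223 early and 1307 ± 163 late. In Tnfr2-/-, Rps2, Rpl7l1, Rpl22l1 and Rps27l were called, all lower. These fits called 2715 genes in WT and 2770 in Tnfr2-/-, so that the members' shares were again below those of all genes. The median difference of the 81 genes in WT was -0.01 with the loci added, beside -0.12 without. The 25 members that share no such locus (Rps12l1, whose loci were given to Rps12, left out) had a median of -0.05 in WT and 0.04 in Tnfr2-/-.

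Most of the genes that build ribosomes fell with time in both genotypes. Of 32 ribosome biogenesis genes, 22 fell in WT and 26 in Tnfr2-/- and none rose, with medians of -0.53 and -0.64. These are 68.8% and 81.2% of the list, beside 8.52% and 9.93% of all genes. Nop56, a core protein of box C/D small nucleolar RNPs, changed by -0.67 (SE 0.102) in WT and -1.01 (SE 0.102) in Tnfr2-/-. Ncl, the nucleolar protein nucleolin, changed by -0.59 and -0.75. Between the genotypes over all days, 3 of the 32 were lower in Tnfr2-/- (Nop2, Nop56 and Ltv1), and at late days 5 were lower. These are 9.38% and 15.6% of the list, beside 3.09% and 2.64% of all genes lower. Of 14 genes of RNA polymerase I and its factors, which transcribe rRNA, none was called with time in WT and 4 fell in Tnfr2-/-, among them Polr1b (-0.98), and 2 were lower in Tnfr2-/- over all days. The last counts are 28.6% and 14.3% of the list, beside 9.93% and 3.09% of all genes. Of 78 mitochondrial ribosomal protein genes, 13 fell in WT and 26 in Tnfr2-/-, and none rose. These are 16.7% and 33.3% of the list, beside 8.52% and 9.93% of all genes lower with time. Over all days 1 was lower in Tnfr2-/- (1.28%, beside 7.6% of all genes called).

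Among 19 translation factors and other genes with TOP mRNAs, 5 rose and 5 fell in WT, and 2 rose and 5 fell in Tnfr2-/-, 52.6% and 36.8% of the list beside 20.1% and 20.3% of all genes. Eef2, which moves the ribosome along the mRNA, rose in WT (0.50, SE 0.102), while Npm1, a nucleolar chaperone, fell in both genotypes (-0.48 and -0.61). From 1 to 2 DPP, 18 of these 19 had a positive difference, with a median of 0.26, and 3 passed the test (15.8%, beside 0.761% of all genes): Eef2, Eef1b2 and Npm1. Between the genotypes none of the 19 was called. Of 18 genes of translation control, 3 rose and 1 fell with time in WT (22.2%), and 3 rose and 2 fell in Tnfr2-/- (27.8%), near the 20.1% and 20.3% of all genes. Ddit4, an inhibitor of mTORC1, rose in both (1.17 and 0.77), as did Pdcd4, an inhibitor of the helicase eIF4A (1.09 and 0.70). Eif4ebp1, the mTORC1-controlled repressor of eIF4E, was the 1 gene of this list called between the genotypes over all days, 0.38 higher in Tnfr2-/-. The 297 named pseudogenes of ribosomal proteins held 4.39% to 12.1% of the level they and the members had together; 54 of them were tested, of which 9 rose and 2 fell in WT (20.4%, beside 20.1% of all genes) and 1 rose and 2 fell in Tnfr2-/- (5.56%, beside 20.3%). Rpl34-ps1 was the 1 called between the genotypes over all days.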

How the data were processed

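Libraries were 20 stranded bulk RNA-seq libraries of colonoids, grouped by genotype and day from their titles. The authors deposited signal values per transcript, namely TPM from kallisto normalized in sleuth (both named in the submitters' processing notes; mouse build mm10). The authors' own test columns (p- and q-values, model variances) were not used. Read depth per library was not in the files, so no counting interval could be given, and precision rests on 2 mice per genotype; p-values measure the spread between cultures, which may in part be technical.

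Of 113974 rows, 781 repeats were dropped, and transcripts were summed per symbol. limma 3.58.1 (R 4.3.3, trend) was fitted to log2(TPM + 1) for 13539 genes with a mean of at least 1, with genotype and day or with the 10 groups, and Benjamini-Hochberg adjustment ran over all genes at 0.05; the script was tested on simulated data. Differences on this scale understate changes of low genes. The planned test was written for normalized values and was kept. Loci were linked by 31-base words of GENCODE M21 transcripts. Members, gene lists and tests were chosen with earlier results of these data known. Named were the called members with the 5 largest differences each way (the 3 of lowest p where fewer than 3 were called), paralogue pairs, stalk proteins, Rpsa, Rps6, Rpl5, Rpl11, Rps19, Rps24, Rpl34, and the 3 highest and lowest; others were chosen after their values were seen. The series' design text gives 2 mice per genotype as the replicates, and the replicate number, which recurs at each day, was read as the mouse; no label says outright that a number is the same mouse on every day. Differences between the numbers correlated across days from 0.0997 to 0.307 in WT and from -0.0511 to 0.08 in Tnfr2-/-, where they do not bear the reading out. Alternatives were pseudocount 0.1, no filter, other scalings, no trend, added pseudogenes, the mouse as a block, means of mice, and leaving out libraries or mice. Some genes that the rule names are not reported here.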

Additional observations from a re-analysis of the deposited data

How the results depend on the processing

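The counts of members called depended on the scaling, the filter and single libraries. Over all days between genotypes, 4 were called with library-sum scaling and 2 without WT mouse 1. Adding named pseudogenes or linked loci (the latter chosen after seeing the data) left 1 call over all days and 1 at late days, Rpl34, now higher (0.50 and 0.50 over all days, 0.66 and 0.66 late), and 0 at early days (0.39 and 0.39), since the pseudogene's level was then part of the gene. With means of each mouse 0 were called late, where Rpl34 differed by -3.47 (adjusted p = 0.1193). With time in WT the count was 5 with no filter, 27 with library-sum scaling and 7 with linked loci; in Tnfr2-/- it was 2 with no filter, 10 with library-sum scaling, 10 with centering on the members and 3 without the trend. From 1 to 2 DPP it was 0 with pseudocount 0.1, no filter, library-sum scaling or no trend, 2 with linked loci, and 1 lower gene with centering. From 3 to 5 DPP it was 1 with no filter or library-sum scaling. The counts in this section are of members only. Where not given above, the calls of all genes under the same setting are not set beside them, so the moves are not read as particular to the members. The cause of these moves was not tested. With the replicate block (mouse) 5, 2 and 1 members were called from 1 to 2, 3 to 5 and 5 to 7 DPP, and the block changed no other count by over 1.5 times. In WT with time, Rpl12 turned to 0.16 with linked loci, Rpl30 to 0.18 with named pseudogenes and 0.19 with linked loci, and Rpl36a to 0.028 with named pseudogenes. Leaving out 1 library or mouse gave 1 to 2 calls over all days, 1 early, 1 to 4 late (4 without WT mouse 1 at 7 DPP), 5 to 20 with time in WT, 2 to 5 in Tnfr2-/-, 0 to 1 from 1 to 2 and from 3 to 5 DPP, and 0 for the other steps and the difference of differences. The mean summed level, 127568, was 140138 with named pseudogenes and 153607 with linked loci. Library-sum scaling moved the median of all genes by less than 0.1, and centering on the members moved it from -0.01 to -0.25 from 1 to 2 DPP. Without read depth, calls of low genes could not be weighed by their counts.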
